A study of Mus musculus with 2 samples.

Results

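Proximal tubule cells with high Cyr61 and Fosb numbered 504 of the 2472 cells that passed a proximal tubule gate in kidneys of mice with rhabdomyolysis. They came from 2 single-cell libraries, where vehicle gave 281 of 1366 such cells and CA3 gave 223 of 1106; all kept cells together numbered 3261. Levels are UMIs (unique molecular identifiers, 1 per captured RNA molecule) per 10000 non-mitochondrial UMIs. Barcodes under 500 genes or above 50% mitochondrial UMIs were dropped. A cell passed the proximal tubule gate with Slc34a1 and Lrp2 summing to at least 25, and was called a member with Cyr61 and Fosb summing to at least 4.

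Proximal tubule cells reabsorb most of the filtered salt, glucose, phosphate and protein. Slc34a1 encodes the brush border phosphate carrier and Lrp2 the endocytic receptor megalin. Cyr61 encodes a secreted matricellular protein that is a classical target of the coactivators YAP and TAZ, and Fosb encodes a subunit of the transcription factor AP-1. Both are immediate early genes, which cells switch on within minutes of a stimulus without new protein synthesis, and in kidney tissue they answer injury as well as the enzymes and handling used to free single cells.

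Both libraries held total kidney cells of female C57Bl/6 mice aged 9 weeks with the genotype Pax8.rtTA;TetO.Cre;R26.FUCCI2aR, and both groups had rhabdomyolysis, the breakdown of skeletal muscle whose myoglobin injures the tubule. Pax8.rtTA with TetO.Cre allows Cre to be induced in tubule cells, and R26.FUCCI2aR is a Cre-dependent cell cycle reporter. One group received vehicle and the other CA3, a compound described as an inhibitor of YAP1. Dose, time after injury and animals per library are not given here. With 1 library per group there is no replicate check and no test, and treatment cannot be told apart from animal, dissociation or library. Every interval below is a 95% interval that covers counting error only. The libraries held 19592239 and 17013222 UMIs (vehicle first, as in all pairs below), and 1 cell barcode occurred in both.

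Members carried the defining genes of proximal tubule, in part by the rule. All 11 measured proximal tubule markers had UMIs, and their summed level was 179 in vehicle members and 181 in CA3 members, against 196 and 192 in the other cells past the gate. Slc34a1 and Lrp2, which set the gate, are among these markers. They stood at 49.0 and 26.7 in vehicle members and at 51.1 and 25.7 in CA3 members, so that part of the sum follows from the rule. Markers of 14 other cell types were low: 7.47% of vehicle and 8.07% of CA3 members carried at least 10 per 10000 of any one of these lists, against 10.97% and 10.9% of the other cells. Members and other cells did differ in depth and quality. Median depth was 10604 and 12492 UMIs in members against 5011 and 5165 in the other cells, and the median mitochondrial share was 12.7% and 12.8% against 21.3% and 22.8%.

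A larger difference lay in Malat1, an abundant long non-coding RNA that stays in the nucleus (mm10 chr19:5795690-5802672, minus strand). Members had a median Malat1 level of 1440 and 1330, and the other cells one of 10.3 and 12.1. The other cells fell into separate groups: 25.6% (vehicle) and 25.3% (CA3) had at least 100 Malat1 UMIs per 10000, while 96.4% and 94.2% of the members did. Between 30 and 300 lay only 8 and 9 members and 72 and 35 other cells. The level of 100 was chosen after the values were seen. Other cells below 100 had median depths of 4411 and 4476.5 UMIs and mitochondrial shares of 23.2% and 25.4%, whereas Malat1-rich other cells, at 9197.5 and 9821 UMIs and 12.0% and 13.6%, were closer to the members. Most of the comparison cells were therefore shallow, rich in mitochondrial UMIs and poor in nuclear RNA. Comparisons are given against all other proximal tubule cells and again among the Malat1-rich cells alone.

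**Figure D1:**
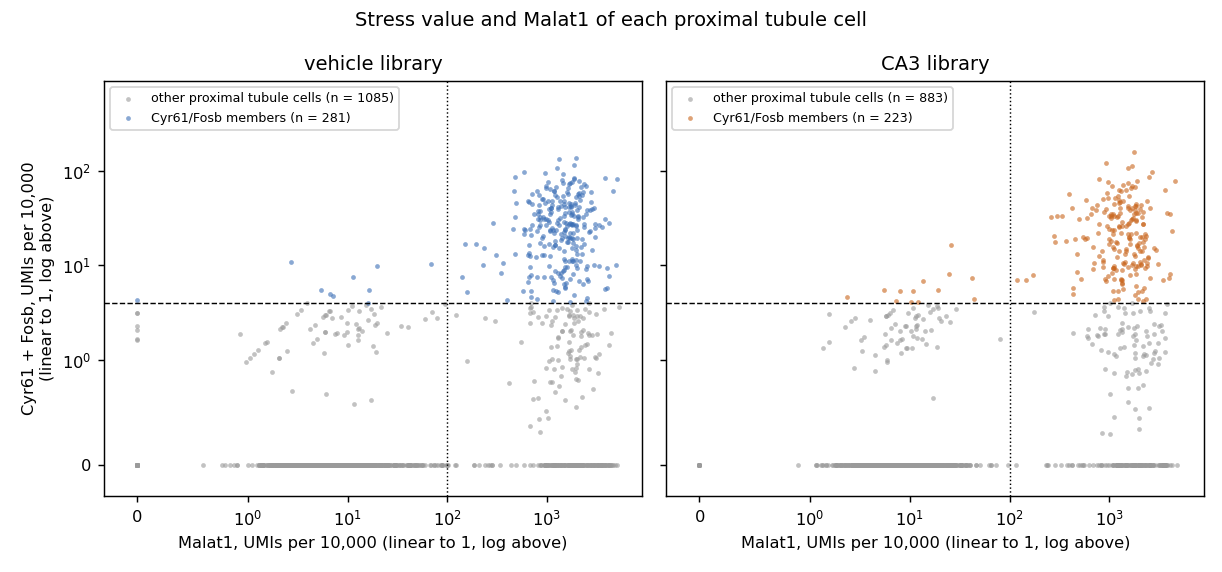
Malat1 (x axis) and the summed level of Cyr61 and Fosb (y axis) of every cell past the proximal tubule gate, both in UMIs per 10000 on axes linear to 1 and logarithmic above. Points are cells, the dashed line is the member threshold of 4 and the dotted line a Malat1 level of 100. Members, in colour, lie almost all right of the dotted line, while most other cells, in grey, lie left of it.

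The members made up nearly equal shares of both libraries. They were 20.6% (exact Clopper-Pearson interval 18.5 to 22.8%) of proximal tubule cells with vehicle and 20.2% (17.8 to 22.7%) with CA3, a ratio of 0.980 (0.838 to 1.15). With each cell thinned to 2500 UMIs before the thresholds were applied, the shares were 25.8% and 25.8%. Among Malat1-rich cells the members were 271 of 549 (49.4%, 45.1 to 53.6%) and 210 of 433 (48.5%, 43.7 to 53.3%), a ratio of 0.983 (0.864 to 1.12). The share moved with depth and quality alike in both libraries: below 4000 UMIs it was 5.42% and 3.30%, and at 16000 or more 57.4% and 51.0%. It was 36.2% and 41.7% below 10% mitochondrial UMIs, and 6.34% and 3.61% at 30 to 50%. Beneath the proximal tubule gate, 135 of 401 and 126 of 388 kept cells also passed the Cyr61 and Fosb threshold. These were larger shares than above the gate, without matching for depth. Such levels were therefore not particular to cells past the proximal tubule gate.

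The threshold is low, and the members spread widely above it. The median of the summed Cyr61 and Fosb level was 24.3 in vehicle and 18.9 in CA3 members, with highest values of 139 and 158. Both genes were present in 202 and 167 members, Cyr61 without Fosb in 22 and 22, and Fosb without Cyr61 in 57 and 34. Membership rested on 1 UMI in 2 and 2 cells and on at least 10 UMIs in 223 and 180. Of the other cells, 905 and 729 had neither gene. At equal depth, Fosb stood at 20.8 and 18.6 in members against 0.146 and 0.151 in the others, and Cyr61 at 9.26 and 8.20 against 0.180 and 0.237; these values follow from the rule. Cells just inside the threshold, at 4 to 5, had Fos levels of 2.67 and 1.33, and those just outside, at 3 to 4, had 2.33 and 0.889. These Fos levels rest on 6 and 3 UMIs in 9 and 9 thinned cells inside, and on 21 and 6 UMIs in 36 and 27 outside. Jun was at 14.7 and 16.9 just inside and 10.4 and 8.44 just outside.

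The start regions of the rule genes and of 3 of the genes that stood highest in members are shown because all 5 hold a short element of the cyclic AMP response element (CRE). Each line holds the 250 bases upstream of the RefSeq start on GRCm38.p6, read 5′ to 3′ along the gene. Capitals mark the CRE TGACGTCA, its core TGACG and the TEAD motif GGAATG, through which YAP and TAZ act, on either strand.
Cyr61, chr3:145649986-145650235, minus strand: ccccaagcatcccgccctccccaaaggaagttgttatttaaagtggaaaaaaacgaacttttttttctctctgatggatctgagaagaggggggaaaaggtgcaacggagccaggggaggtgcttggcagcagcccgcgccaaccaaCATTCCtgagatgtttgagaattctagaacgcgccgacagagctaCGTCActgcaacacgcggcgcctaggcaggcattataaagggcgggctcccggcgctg
Fosb, chr7:19310046-19310295, minus strand: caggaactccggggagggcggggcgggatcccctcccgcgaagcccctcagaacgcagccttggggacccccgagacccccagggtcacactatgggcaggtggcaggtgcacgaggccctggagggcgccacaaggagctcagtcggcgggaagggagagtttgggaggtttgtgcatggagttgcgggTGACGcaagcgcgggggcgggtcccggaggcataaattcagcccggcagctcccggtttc
Fos, chr12:85473640-85473889, plus strand: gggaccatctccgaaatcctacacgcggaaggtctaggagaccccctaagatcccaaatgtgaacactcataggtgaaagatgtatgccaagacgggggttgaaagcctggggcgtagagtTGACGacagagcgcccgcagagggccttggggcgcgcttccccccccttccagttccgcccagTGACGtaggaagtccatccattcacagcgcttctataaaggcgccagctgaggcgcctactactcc
Dusp1, chr17:26508473-26508722, minus strand: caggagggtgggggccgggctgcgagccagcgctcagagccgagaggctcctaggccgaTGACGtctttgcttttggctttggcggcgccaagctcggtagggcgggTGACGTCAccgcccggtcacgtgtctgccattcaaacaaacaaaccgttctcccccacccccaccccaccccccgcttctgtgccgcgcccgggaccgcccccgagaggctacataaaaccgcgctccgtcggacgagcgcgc
Btg2, chr1:134079156-134079405, minus strand: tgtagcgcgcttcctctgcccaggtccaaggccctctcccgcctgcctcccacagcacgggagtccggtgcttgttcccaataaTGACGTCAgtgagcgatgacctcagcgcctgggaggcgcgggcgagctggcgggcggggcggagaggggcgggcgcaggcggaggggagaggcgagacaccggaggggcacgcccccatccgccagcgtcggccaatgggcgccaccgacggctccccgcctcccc

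Cyr61 held 1 TEAD motif, its first base at -103 from the start, and 1 CRE core at -58, while Fosb held 1 CRE core at -60. Fos held CRE cores at -129 and -66. The whole CRE, which contains the core on each strand, stood at -143 in Dusp1 and -166 in Btg2, and Dusp1 held a further core at -191. Start windows were matched for 14 of the 15 genes named below as highest in members (all but Wisp1). The CRE was in 2 of these 14, against 1.88% of 27025 RefSeq windows (250 bases before the start and 50 after), and the core, a motif chosen after the sequences were seen, in 6 of 14 (Klf4, Fos, Atf3, Dusp1, Btg2 and Chka) against 21.0%. The TEAD motif was in 0 of 14 (14.6% of all windows), as were the AP-1 site TGANTCA (7.93%), the CArG box bound by SRF (1.57%) and the heat shock element (0.529%). These are matches of letters in one window per gene. Elements outside the window or with other letters are not counted, so 0 matches do not show that a gene lacks them. The windows of Dusp1, Atf3 and Jund begin at starts that lie 53656, 34706 and 1210 bases from the gene starts of the GENCODE annotation.

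Against the other proximal tubule cells at 2500 UMIs per cell, members had far higher levels of AP-1 subunits and most other measured immediate early genes in both libraries, and of 6 of 15 heat shock chaperones. Klf4, a zinc finger transcription factor (mm10 chr4:55527143-55532466, minus strand), was 78.2 times higher with vehicle (42.8 to 159) and 76.8 times with CA3 (31.8 to 242). Fos, the partner of Jun in AP-1 (chr12:85473890-85477273, plus strand), stood at 15.99 against 0.356 (ratio 44.9, 36.4 to 56.0) and 17.0 against 0.440 (38.6, 31.2 to 48.3). The cells were uneven: Fos in single members had a median of 7.94 and 6.23 and a 90th percentile of 40.2 and 50.04, against medians of 0 in the other cells. Of 8699 genes measured, 367 were at least 2 times higher in members of both libraries, or 4.22%, and 54 were at least 2 times lower, or 0.621%. Among the Malat1-rich cells 98 of 6648 were higher (1.47%) and 52 lower (0.782%), and 79 of the 367 and 17 of the 54 met the same rule there. Among cells of like depth and quality (8000 to 16000 UMIs and 5 to 20% mitochondrial UMIs, bounds chosen after the data were seen) 132 of 7960 were higher (1.66%) and 24 lower (0.302%). These cells were chosen by 2 genes measured in the same cells, so the ratios describe them and are not a test.

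The 15 higher genes named by the rule were all at least 2 times higher in both libraries among the Malat1-rich cells too. Ordered by role, the AP-1 group held Fos, Jun, Jund and Atf3. Jun (chr4:95049034-95052222, minus strand) had 53.5 UMIs per 10000 in vehicle members against 2.49 in the other cells, and 50.7 against 3.35 in the CA3 library. Its ratios of 21.5 (19.8 to 23.4) and 15.2 (13.95 to 16.5) were 8.42 (7.64 to 9.31) and 6.41 (5.81 to 7.09) among Malat1-rich cells. The ratios of Fos became 20.2 (15.5 to 27.0) and 20.2 (15.2 to 27.6). Atf3, an AP-1 partner that is itself induced by stress, had 86 and 53 UMIs in members and 6 and 3 in the others. Its ratios were 55.3 (24.4 to 155) and 67.9 (22.0 to 339), and the Malat1-rich value of the CA3 library rests on 1 UMI in the other cells.

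Regulators that act downstream of such signals stood high as well. Dusp1, a phosphatase that switches off MAP kinases, was at 9.83 against 0.408 and at 8.53 against 0.459, with ratios of 24.1 (19.7 to 29.8) and 18.6 (14.9 to 23.4). Among Malat1-rich cells they were 9.27 and 6.46. Btg2, an antiproliferative factor that promotes mRNA decay, had ratios of 25.3 and 16.1 (12.8 and 5.67 among Malat1-rich cells). Klf6, a zinc finger factor, had 20.8 and 16.6 (9.46 and 9.10), and the small GTPase gene Rhob 25.9 and 18.6 (11.8 and 11.2). Klf4 kept ratios of 76.3 (25.8 to 373) and 35.4 (11.8 to 175), each against 3 UMIs in the Malat1-rich other cells.

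Stress-linked metabolic genes and chaperones formed the rest. Pdk4, a kinase that restrains pyruvate oxidation, stood at 1.91 against 0.0599 and at 2.84 against 0.0757, with ratios of 31.8 (18.9 to 57.3) and 37.4 (22.3 to 67.1); among Malat1-rich cells they were 19.3 and 15.1. Txnip, the thioredoxin-interacting protein, had ratios of 12.9 and 9.97 (7.08 and 4.35). Chka, choline kinase, had 11.5 and 8.75 (3.62 and 2.94). Hspa1a, an inducible Hsp70 chaperone, had 18.6 and 21.7 (7.73 and 8.81). The matricellular gene Wisp1, of the same family as Cyr61, had only 22 and 20 UMIs in members and 2 and 4 in the others (42.4, 10.4 to 372, and 19.2, 6.43 to 77.3). Gdf15, a secreted stress hormone, was the named gene whose ratio was larger among Malat1-rich cells in both libraries, at 15.1 (7.43 to 35.9) and 25.5 (9.64 to 95.5) against 8.43 and 10.1.

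**Figure D2:**
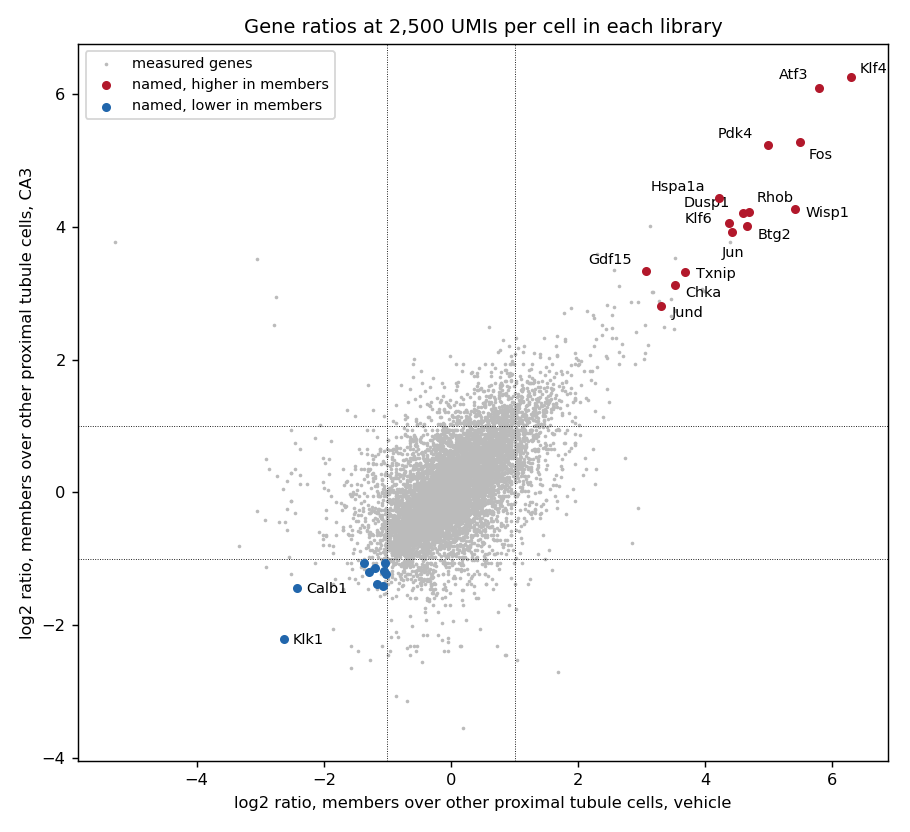
Log2 ratio of members over the other proximal tubule cells in the vehicle library (x axis) and the CA3 library (y axis), cells thinned to 2500 UMIs. Grey points are measured genes (10 at 0 in one of the groups are not drawn), coloured points the named genes, and dotted lines mark 2 times. The 15 named higher genes lie at the top right, with Klf4 at 78.2 and 76.8 times.

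By list, all 7 measured AP-1 subunits and partners were at least 2 times higher in both libraries, with a median log2 ratio of 3.35 and 2.87, and so were all 7 among Malat1-rich cells (2.57 and 2.52). The median of all measured genes was near 0 in each of these comparisons (-0.0035 and 0.035 against all other cells, -0.024 and -0.0013 among Malat1-rich cells). Junb had ratios of 7.09 and 7.31, Fosl2 10.2 and 5.65, and Mafk 4.77 and 6.2. Of 24 other immediate early genes 23 were higher (medians 2.67 and 2.44), and 14 among Malat1-rich cells (1.70 and 1.78). The exception was Zfp36l2, an mRNA decay factor, at 2.15 and 1.44. Egr1, an early growth response factor, stood at 3.52 against 0.311 and 3.04 against 0.554 (11.3, 8.80 to 14.7, and 5.48, 4.30 to 7.004), and Myc had ratios of 9.64 and 7.36. Errfi1, an inhibitor of EGF receptor signalling, went from 2.02 and 2.25 to 0.830 (0.757 to 0.910) and 1.002 (0.899 to 1.12) among Malat1-rich cells.

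Heat shock chaperones were split. Of 15 measured, 6 were at least 2 times higher in both libraries, and 6 among Malat1-rich cells. The inducible Hspa1b stood at 15.8 (11.5 to 22.3) and 8.16 (5.29 to 12.8) times the level of the other cells, Dnajb4 at 7.67 and 7.30, and Hsp90aa1 at 4.64 (4.33 to 4.98) and 3.57 (3.27 to 3.89). Constitutive members were close to the other cells: Hspa8 at 1.45 and 1.16, Hsp90ab1 at 1.35 and 1.14, and the mitochondrial Hspd1 at 0.710 and 0.817. Hspa8 was at 1.90 (1.75 to 2.07) and 1.62 (1.48 to 1.78) among Malat1-rich cells.

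Beside Cyr61, which defined the members, other target genes of YAP and TAZ were mostly higher by less than 2 times. Of 12 measured, 10 lay above 1 in both libraries and 0 below, and 2 were at least 2 times higher (4.22% of all measured genes were), with median log2 ratios of 0.65 and 0.78, and 2 of 10 among Malat1-rich cells (0.12 and 0.77, against 1.47% of all genes). Amotl2, a feedback regulator of YAP, stood at 5.82 (4.14 to 8.23) and 5.01 (3.18 to 7.97), and at 5.31 (3.14 to 9.52) and 4.25 (2.16 to 9.12) among Malat1-rich cells. Nt5e, which encodes the ectoenzyme CD73, was the other, at 2.51 and 2.49. Nuak2, a kinase, had 1.88 and 3.01, and 0.882 (0.672 to 1.16) and 1.57 (1.11 to 2.25) among Malat1-rich cells. Ctgf, the closest relative of Cyr61 among classical targets, had 8 UMIs in all vehicle members and 17 in all CA3 members, too few to measure at equal depth. None of the 13 Hippo pathway components reached 2 times (medians 0.33 and 0.28; 0 of 12 and -0.19 and -0.065 among Malat1-rich cells). Of 12 genes of the SRF and actin list, Srf itself was the 1 higher, at 4.82 and 2.34.

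Parts of other stress pathways were higher too, against 4.22% of all measured genes. Ppp1r15a (GADD34), which restores translation after stress, stood at 11.6 (7.63 to 17.98) and 6.75 (4.33 to 10.7), and 6 of 14 genes of the unfolded protein and integrated stress list were higher, with Hspa5, the chaperone BiP, at 3.11 and 2.68; among Malat1-rich cells it was 3 of 13. Of 13 p53 targets 4 were higher, among them Gdf15 and Plk3 (4.01 and 3.97), and 1 of 10, Gdf15, among Malat1-rich cells, where Plk3 was at 1.07 and 1.18. Nfkbiz and Nfkbia, feedback genes of NF-kB, stood at 9.03 and 8.10 and at 3.25 and 2.61, 2 of 4 measured. In the haem and oxidative stress list 1 of 17 was higher, a share near the 4.22% of all measured genes, and 10 of 17 lay below 1 in both libraries. The higher gene was Osgin1, at 10.999 (8.68 to 14.05) and 7.54 (5.97 to 9.58). Hmox1, the haem oxygenase induced by myoglobin, was not, at 1.19 (0.588 to 2.27) and 0.768 (0.330 to 1.59).

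Injury genes of the tubule did not move together with member status. Of 10 measured, Sox4 was higher (2.83 and 2.30) and Clu lower (0.227, 0.0813 to 0.511, and 0.480, 0.185 to 1.06). Spp1, osteopontin, stood at 34.9 against 38.1 and 38.4 against 41.3. Among Malat1-rich cells 3 of 10 were higher, Krt8, Vcam1 and Plin2 (a lipid droplet protein, 2.55 and 2.26), and Clu was lower at 0.0622 (0.0165 to 0.167) and 0.297 (0.109 to 0.707). Havcr1, which encodes KIM-1, had 0 and 9 UMIs over all members, and Lcn2 11 and 0. A count of 0 is compatible with up to 3 UMIs. None of the 9 cell death genes and none of the 4 cell cycle genes measured passed 2 times in both libraries.

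Proximal tubule function genes were near the level of the other cells. Of 24 brush border and transport genes 0 passed 2 times in either comparison, with median log2 ratios of 0.049 and -0.0082 and, among Malat1-rich cells, 0.057 and 0.039. The 8 gluconeogenesis genes likewise gave 0. Within the tubule, genes of the first segment (S1) and of the later segments (S2 and S3) went opposite ways among Malat1-rich cells. All 7 S1 genes lay below 1 in both libraries (medians -0.65 and -0.51). Slc5a2, the S1 glucose carrier SGLT2, (chr7:128265657-128272430, plus strand) was at 2.99 against 7.55 and 4.08 against 9.21 (0.396, 0.335 to 0.467, and 0.443, 0.376 to 0.521), and Slc6a19, a neutral amino acid carrier, at 0.526 and 0.508. Of 9 S2 and S3 genes 7 lay above 1 and 1 below in both libraries, with medians of 0.70 and 0.67 over the 7 with enough UMIs. Napsa, a protease, was at 2.22 (1.88 to 2.62) and 3.62 (2.89 to 4.56). Against all other cells neither list showed this: 3 S1 genes lay above 1 and 2 below in both libraries, and Napsa was at 0.671 and 0.846. Among cells of like depth 5 S1 genes lay below 1 and 1 above in both libraries, and 5 S2 and S3 genes above and 2 below.

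Respiratory chain genes encoded in the nucleus gave different values in each set of comparison cells. Against all other cells all 22 lay below 1 in both libraries, with medians of -0.81 and -0.78. Cox4i1, a subunit of cytochrome c oxidase, was at 19.9 against 36.4 and at 17.1 against 31.7. Among Malat1-rich cells 0 of 22 lay below 1 in both libraries and 12 lay above, with medians of 0.16 and 0.055. Among cells of like depth and mitochondrial share 20 of 22 lay below 1 in both libraries and 0 above, with medians of -0.41 and -0.38. The nuclear long RNAs went the other way, from 4 of 5 higher (medians 1.57 and 1.54; Malat1 3.03 and 2.91 times) to 0 higher and 1 lower (-0.33 and -0.29; Malat1 0.819 and 0.819), and among cells of like depth to 0 higher (0.53 and 0.38). The Malat1-rich cells were chosen by Malat1, so its change there follows from that choice. How far the other long RNAs follow from it was not tested. Fatty acid oxidation genes shifted in the same direction as the respiratory chain, from medians of -0.34 and -0.14 to 0.46 and 0.60 among Malat1-rich cells, with 0.085 and -0.0027 at like depth, and 2 of 20, Acaa1b and Cyp4a14, passed 2 times among Malat1-rich cells.

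**Figure D3:**
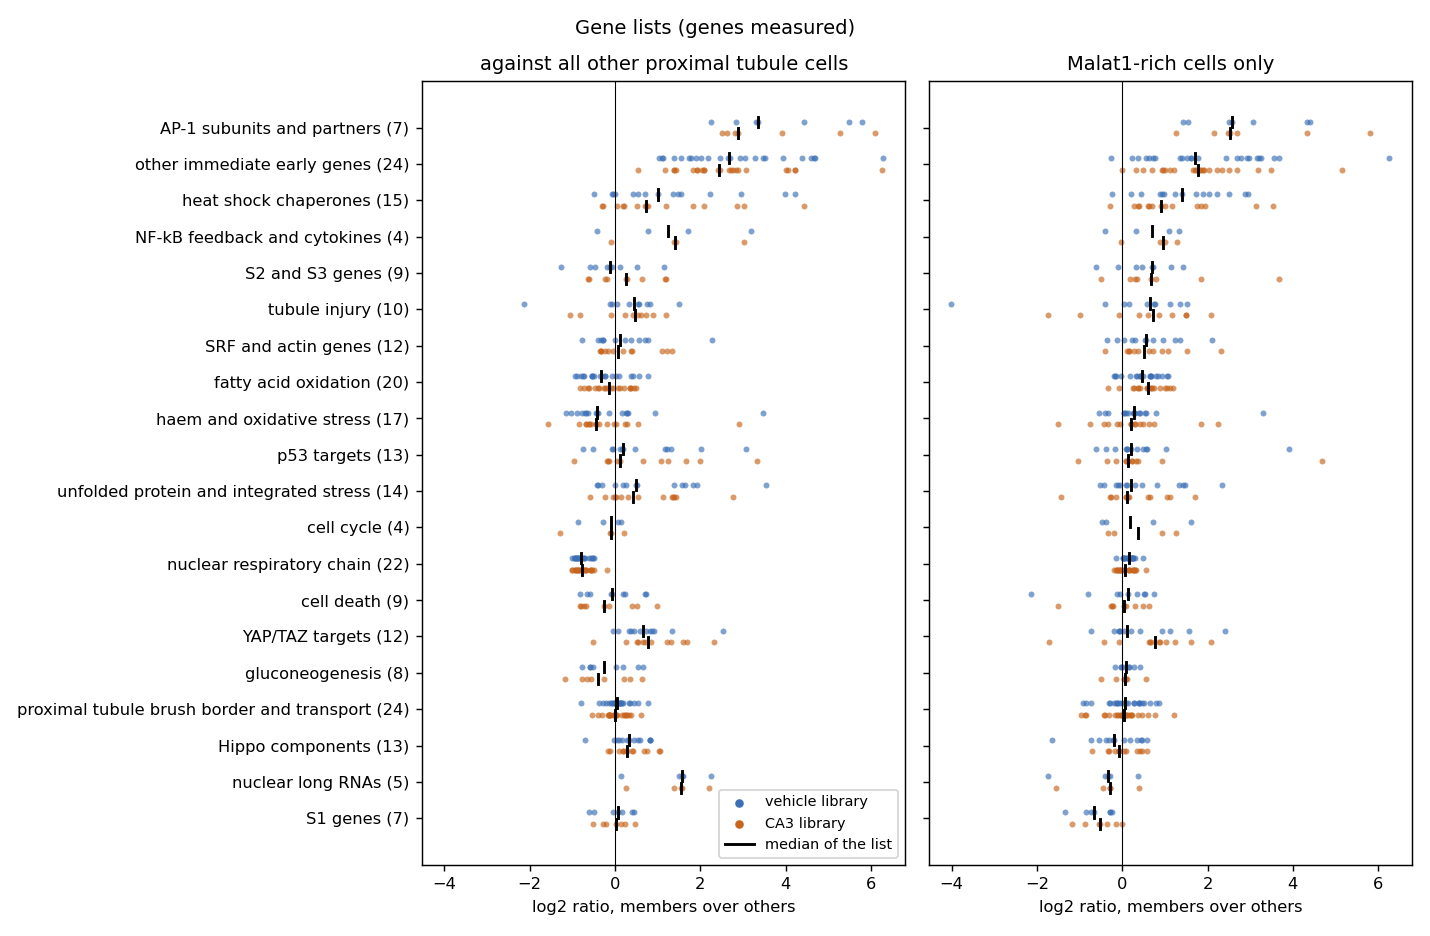
Log2 ratio of members over other cells for each measured gene (points) and the median (black bar) of 20 gene lists, vehicle above CA3 in each row. The left panel uses all other proximal tubule cells and the right panel Malat1-rich cells only. AP-1 subunits and other immediate early genes lie right of 0 in both panels, while the respiratory chain lies left of 0 in the left panel and around 0 in the right one.

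The 10 lower genes named by the rule showed the same dependence. Ndufc1, a subunit of complex I, stood at 3.62 against 7.45 and 4.13 against 8.60 (0.486, 0.425 to 0.555, and 0.480, 0.416 to 0.551), but at 0.896 (0.748 to 1.07) and 0.847 (0.702 to 1.02) among Malat1-rich cells. The others of that kind were Pfdn1, Morn2, Endog, Uqcc3, Exosc4, Gchfr and Nme2, and of the 10 named genes 7 stayed below 1 in both libraries and 2 stayed at least 2 times lower. Nme2 and Klk1 share 98.9% and 47.6% of their 3′ sequence words with other genes, so their counts are uncertain. The 2 that stayed lower were Klk1, a kallikrein of the distal nephron, at 0.0763 (0.0528 to 0.107) and 0.128 (0.0785 to 0.200), and Calb1, a distal tubule calcium buffer, at 0.118 (0.0546 to 0.227) and 0.253 (0.134 to 0.449). Calb1 and other markers of the distal convoluted tubule summed to 1.93 and 2.71 in members and 2.80 and 3.21 in the other cells, and the part of such transcripts in the Klk1 and Calb1 ratios was not tested. Among cells of 8000 to 16000 UMIs and 5 to 20% mitochondrial UMIs, Klk1 was at 0.987 and 0.772 and Calb1 at 1.04 and 0.728. Ndufc1 stayed lower among those cells, at 0.567 (0.498 to 0.644) and 0.624 (0.545 to 0.713). Pfdn1, Morn2, Endog, Uqcc3, Exosc4, Gchfr and Nme2 also lay below 1 in both libraries there, from 0.411 (Morn2, vehicle) to 0.859 (Gchfr, vehicle). The intervals of Gchfr and Exosc4 reached 1.

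Levels of Fos, Jun, Dusp1 and Klf6 were higher in each band of the summed Cyr61 and Fosb level from 4 to 10 upwards. The bands use the values that chose the members, so this is a description. From cells with neither gene, which are not members and had Malat1 at 394 and 373, to cells at 30 or more, Fos went from 0.198 to 26.4 with vehicle and from 0.324 to 34.7 with CA3. Between 4 and 10 it was at 3.45 and 3.87, and between 10 and 30 at 12.2 and 10.4. Jun went from 1.604 to 73.6 and from 2.56 to 85.9, Dusp1 from 0.320 to 15.1 and from 0.318 to 16.1, and Klf6 from 0.414 to 16.7 and from 0.434 to 14.9. Cubn, the endocytic receptor cubilin, was at 3.99 and 3.90 at the bottom and 4.25 and 4.21 at the top. Malat1 was at 1450 and 1246 between 4 and 10 and 1564 and 1496 at 30 or more, and Cox4i1 at 23.1 and 19.6 and at 17.8 and 15.7. Values above 0 and below 2 occur only in deep cells, with medians of 9892 and 10585 UMIs, where Malat1 was 1196 and 1213.

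**Figure D4:**
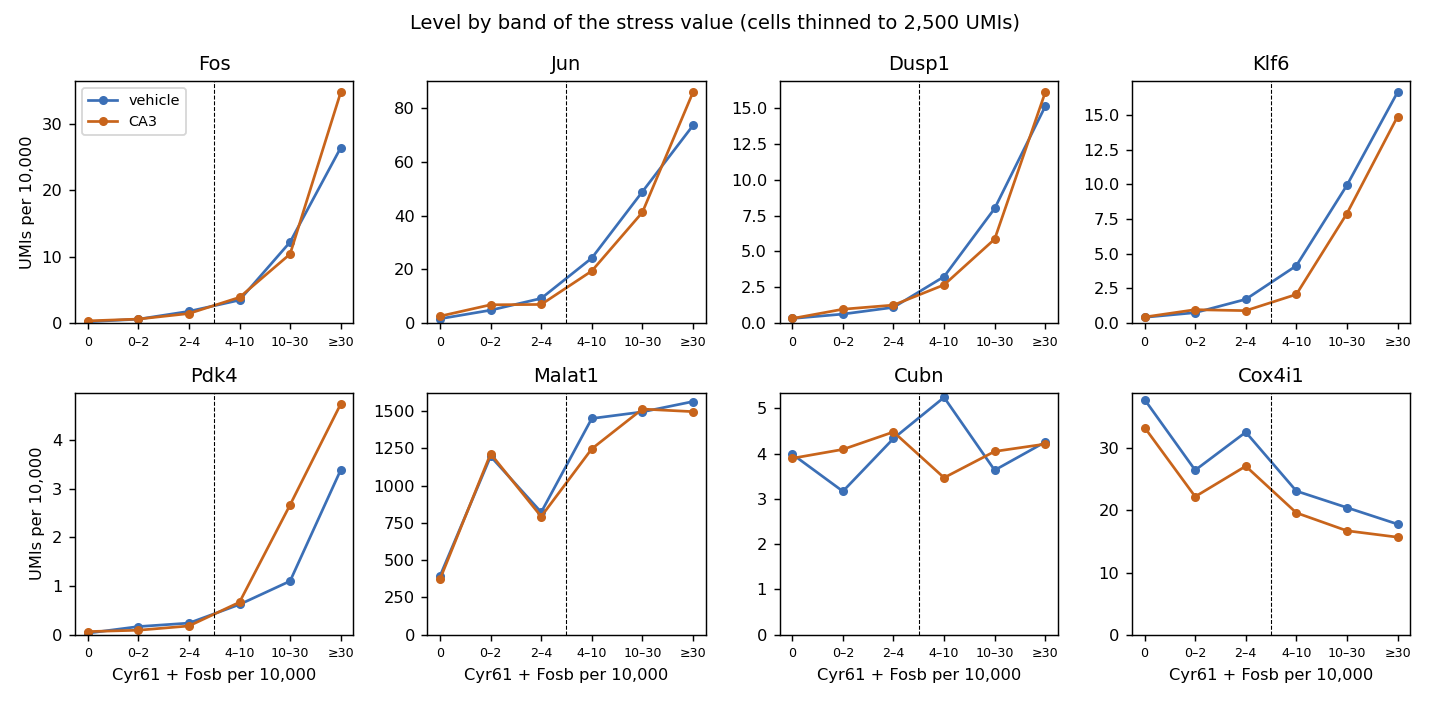
Level in UMIs per 10000 (y axis) of 8 genes by band of the summed Cyr61 and Fosb level (x axis), cells thinned to 2500 UMIs, 1 line per library. The dashed line marks the member threshold. Fos, Jun, Dusp1, Klf6 and Pdk4 increase across the member bands, and Cubn is near 4 from end to end.

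Members with only one of the rule genes were not alike. Cells with Fosb and no Cyr61 had Fos at 10.2 and 12.2 and Jun at 45.8 and 48.6, against 18.7 and 20.05 and 58.2 and 56.7 in cells with both. Cells with Cyr61 and no Fosb had lower values, Fos at 5.4 and 0.909 and Jun at 29.6 and 8.91. They were shallower in both libraries, with median depths of 5818.5 and 5673 UMIs against 11407 and 13260 in cells with both genes, and mitochondrial shares of 19.5% and 19.6% against 12.0% and 12.1%. Their Malat1 was at 1345 and 831 against 1478 and 1480. Heat shock differed alike: Hsp90aa1 was at 20.2 and 4.91 in cells with Cyr61 alone and at 27.3 and 19.6 in cells with both.

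The second comparison asked how members of the CA3 library differed from members of the vehicle library. Of 3525 genes measured, 29 were at least 1.5 times higher (0.823%) and 39 at least 1.5 times lower (1.11%) in CA3 members. These counts rest on unthinned sums: with cells thinned to 2500 UMIs they were 178 and 161, and among cells of like depth 97 and 86. Both settings hold fewer UMIs per gene, so single ratios are less certain there. The numbers of genes measured in them are not given here, so no share and no larger treatment difference is read from these counts. The heat shock gene Hspa1b, several immediate early genes (Egr1, Ier2 and Ier5) and the injury-linked Itgb6 and Plau were lower, and Gstp1, a glutathione S-transferase, was higher. With the 3 cells holding the most UMIs of a gene removed from each library, 22 of the 29 and 26 of the 39 stayed past 1.5 times. In the other proximal tubule cells 4 of the 29 and 12 of the 39 passed 1.5 times in the same direction. The share of all measured genes that did so in those cells is not given here. Neither a shared nor a separate treatment difference is therefore read from this overlap.

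The rule genes themselves were slightly lower in CA3 members, Cyr61 at 0.827 (0.782 to 0.875) and Fosb at 0.866 (0.835 to 0.898) of the vehicle level, which the threshold bounds from below. Fos stood at 17.9 and 17.7 (0.988, 0.951 to 1.03), Jun at 53.1 and 48.1 (0.907, 0.887 to 0.928) and Dusp1 at 9.53 and 9.34 (0.981, 0.930 to 1.03). None of the 5 measured AP-1 genes passed 1.5 times, where 0.823% of all measured genes were higher and 1.11% lower. At those shares 0 of 5 is not read as a result. Among 21 other immediate early genes, 3 passed 1.5 times downwards and 0 upwards, and the median log2 ratio was -0.17 against -0.030 in the other cells. Egr1 was at 4.52 and 2.80 (0.620, 0.568 to 0.676) and Ier2, an early response factor, at 2.05 and 1.36 (0.664, 0.584 to 0.754), while in the other cells their ratios were 1.28 (1.10 to 1.49) and 1.54 (1.20 to 1.99). Shares of cells, not thinned, did not go the same way, and no order is read from them: Egr1 had a UMI in 51.6% of CA3 and 42.0% of vehicle members, and Ier2 in 108 of 223 and 119 of 281, at median depths of 12492 and 10604 UMIs. Ier5 was at 0.678 and 0.426 (0.628, 0.498 to 0.788) and at 0.788 (0.570 to 1.08) in the other cells.

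YAP and TAZ target genes, the list closest to the compound, gave 0 of 7 measured in either direction (median -0.061, and -0.16 in the other cells). Of all measured genes only 0.823% were higher and 1.11% lower. A count of 0 of 7 is near those shares and is not read as a result about these targets. Amotl2 stood at 1.15 and 0.869 (0.757, 0.641 to 0.892), Nuak2 at 1.58 and 1.58 (1.002, 0.881 to 1.14) and Nt5e at 0.774 and 0.880 (1.14, 0.9497 to 1.36). The interval of Ctgf, with 8 and 17 UMIs, ran from 0.996 to 6.52 times. The median of all measured genes was -0.0066.

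Among chaperones, Hspa1b was at 2.58 and 1.36 (0.529, 0.467 to 0.598), Hspa1a at 4.38 and 3.14 (0.718, 0.659 to 0.781) and Hsp90aa1 at 24.8 and 18.5 (0.745, 0.720 to 0.772). In the other cells the ratios were 0.579, 0.482 and 0.948. Itgb6, a chain of the integrin that activates TGF-beta, was at 2.61 and 1.53 (0.585, 0.519 to 0.657), and Plau, urokinase, at 0.870 and 0.518 (0.595, 0.484 to 0.730), with 0.522 and 0.481 in the other cells. Cdkn1a, the gene of p21, had 158 and 51 UMIs in members (0.370, 0.264 to 0.510), under the minimum level of the rule.

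Of the 8 higher genes named by the rule, Gstp1 stood at 0.211 and 0.646 (3.07, 2.31 to 4.11) in members and at 3.28 times (2.82 to 3.84) in the other cells. Usp50 (2.06, 1.63 to 2.61) and Eno1, enolase (1.55, 1.40 to 1.71), were also higher in the other cells, at 1.78 and 1.39. Parts of the 3′ sequence of Gstp1, Eno1, Usp50 and Hbb-bs (42.2%, 42.9%, 20.4% and 57.3% of words) occur in other genes, so these counts are uncertain. Ttr, transthyretin, was at 2.46 (2.08 to 2.91) in members and 0.916 (0.810 to 1.04) in the others, and Impact, a regulator of the translation kinase GCN2, at 1.78 (1.48 to 2.14) and 1.18 (0.964 to 1.45). The Ttr UMIs lay in only 37 vehicle and 33 CA3 members, with 67 of 207 and 166 of 444 in 3 cells. Without those cells the Ttr ratio was 2.28. S100g, a calcium-binding protein, was at 1.57 and, without the 3 top cells, at 1.45, and in the other cells at 1.46 (1.40 to 1.52). Hbb-bs and Slc12a3 came from few cells: 1611 of 1635 Hbb-bs and 118 of 151 Slc12a3 UMIs of the CA3 members lay in 3 cells, and without these the ratios were 0.627 and 0.702.

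Of the 8 lower genes, Ahnak, a giant scaffold protein (0.392, 0.299 to 0.510), and Igfbp1, an insulin-like growth factor binding protein (0.406, 0.299 to 0.545), stayed lower without the top cells, at 0.399 and 0.421. Nme2 was at 0.529 and Hspa1b is given above. The other proximal tubule cells went the same way, with Ahnak at 0.613 (0.470 to 0.795), Igfbp1 at 0.719 (0.542 to 0.949) and Nme2 at 0.598 (0.546 to 0.654). In vehicle members, Aadat, an aminotransferase (0.290), the actin-sequestering Tmsb4x (0.370) and the MHC class II gene H2-Eb1 (0.458) lay largely in few cells. Without the 3 top cells they were at 0.743, 0.764 and 1.80, and in the other cells at 0.925, 1.02 and 1.58. Npnt (0.533) was spread more widely, with 251 of 765 vehicle UMIs in 3 cells and UMIs in 182 vehicle members. Without the 3 top cells it was at 0.668, just short of 1.5 times, and in the other cells at 0.772 (0.703 to 0.847). Mononuclear phagocyte markers summed to 2.40 in vehicle and 1.16 in CA3 members, with 552 of the 774 vehicle UMIs in 3 cells, and their part in the H2-Eb1 and Tmsb4x ratios was not tested; without cells that carry markers of another type these ratios were 1.83 and 1.52.

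**Figure D5:**
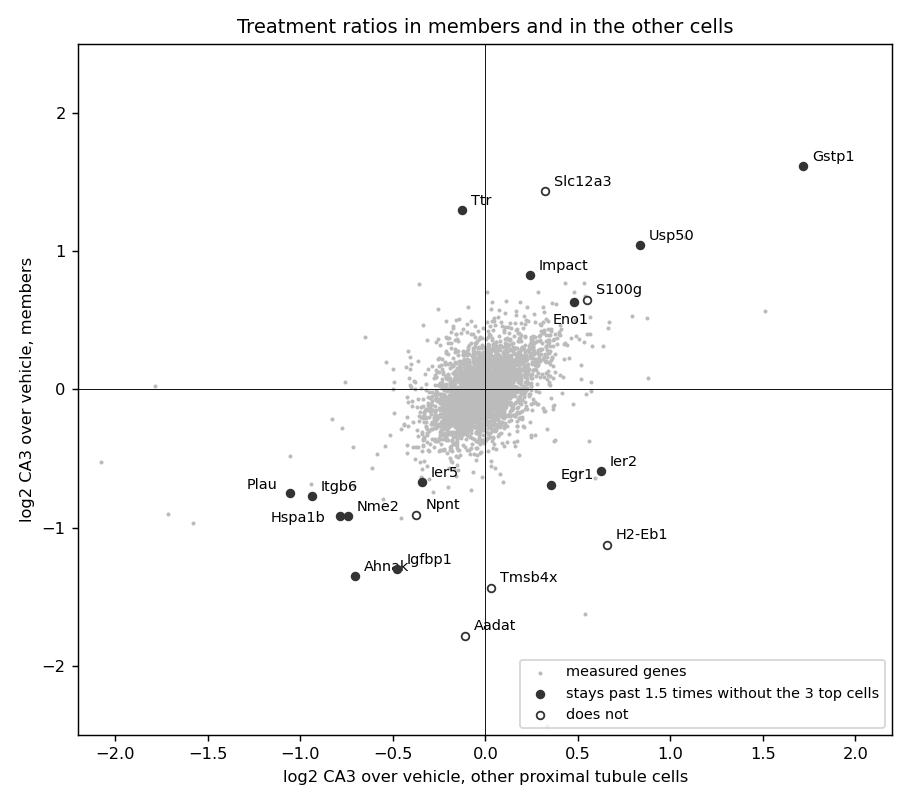
Log2 ratio of CA3 over vehicle in members (y axis) and in the other proximal tubule cells (x axis). Grey points are measured genes, labelled points the named genes and 5 list genes, filled where the member ratio stays past 1.5 times without the 3 cells with most UMIs; 9 genes lie outside the axes, Hbb-bs among them. Egr1, Ier2 and Ttr lie on opposite sides of 0 in the 2 kinds of cell.

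Of 5 reporter sequences added to the reference, only MbmCerulean had enough UMIs at equal depth to be compared between members and other cells, and it was higher in members. It had 412 and 534 UMIs in members and 87 and 214 in the far more numerous other cells, at equal depth a ratio of 11.6 (7.34 to 18.8) and 6.67 (4.83 to 9.30), and of 5.001 (2.90 to 9.18) and 4.33 (2.80 to 6.93) among Malat1-rich cells. EYFP had 45 and 64 UMIs in members and 14 and 29 in the others, and among Malat1-rich cells of the CA3 library its interval ran from 0.912 to 20.02 times. The sequence tdimer2 had 10 UMIs in vehicle members and 147 in CA3 members, 16.8 times (8.90 to 35.9) per UMI, and 7 and 48 in the other cells (7.94, 3.57 to 20.8). The sequences hrGFPIINLS and EGFP had 0 UMIs in the whole of both libraries. Which of the 5 sequences, if any, belongs to the FUCCI2aR reporter of these mice is not given here. The source of the UMIs counted was not tested, so none are read as reporter activity.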

How the data were processed

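Droplet single-cell RNA libraries (10x Chromium 3′, NextSeq500) of 1 vehicle and 1 CA3 kidney sample were used. The deposited values are UMI counts per gene and cell barcode, 31053 genes and 5 reporter sequences, which the authors made with Cell Ranger 3.0.1 on mm10, per the submitters' processing notes; whether doublets were removed beforehand is not given in the sources used here, and no doublet caller was run. An alternative leaving out cells that carry markers of another cell type took its place.

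Dropping barcodes under 500 genes or over 50% mitochondrial UMIs removed 200 of 1967 (vehicle) and 230 of 1724 (CA3). Members passed both gates given in the report. For members against other cells, each cell was thinned to 2500 non-mitochondrial UMIs (seed 11), leaving out 4 and 3 members and 17 and 38 others below that depth, and counts were summed per library; a gene needed 20 thinned UMIs in each library and was called at 2 times in both. For CA3 against vehicle, unthinned sums were used, a gene needed 30 UMIs and 0.5 per 10000, and was called at 1.5 times. Ratios carry exact conditional binomial intervals, shares Clopper-Pearson intervals and the ratio of shares a log-normal (Katz) interval, all 95%. UMIs of 1 library are not replicates, so no p-value was computed. A count of 0 was read as up to 3.

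Named genes are, by member status, up to 15 higher and 10 lower past 2 times in both libraries, ranked by the interval bound nearest 1 in the weaker library, and, by treatment, up to 8 each way past 1.5 times and detected in at least 10% of the members of the higher library. Mitochondrial and ribosomal protein genes, unnamed gene models, reporters and the 4 rule genes were left out; any gene of the 20 lists, the markers and the reporters may also be named. The members, lists and this rule were chosen with earlier results of these data known. Positions are GENCODE vM21 (mm10) and promoter windows RefSeq (GRCm38.p6). Shared 3′ sequence is the share of short words of a transcript's end found in other genes. Alternatives were other gates, filters, thinning, totals and sets of cells. The code was tested on simulated data. Python 3.11.15, numpy 2.4.6, scipy 1.17.1, pandas 2.3.3 and matplotlib 3.10.9 were used.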

Additional observations from a re-analysis of the deposited data

Results flagged for a closer look

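A few genes stood on opposite sides of 1 in the libraries when members were compared with the other proximal tubule cells at 2500 UMIs per cell, with intervals that did not overlap; each rests on few UMIs in some group, and with 1 library per treatment the difference itself was not tested. Haemoglobin genes made up most of them. Hbb-bs was at 0.121 with vehicle (9 UMIs in members, 286 in the others) and 11.4 with CA3 (152 and 51), and Hbb-bt at 0.148 (1 and 26) and 7.68 (16 and 8). Hba-a1 was at 0.0257 (1 and 150) and 13.7 (25 and 7), and Hba-a2 at 0.145 (3 and 80) and 5.76 (18 and 12). Erythroid markers summed to 0.217 per 10000 in vehicle and 8.45 in CA3 members, where 2329 of 2382 UMIs lay in 3 cells, and to 2.02 in the other vehicle cells, where 1218 of 1423 did. Aasdh, an acyl-CoA synthetase family member, was at 3.21 (10 and 12) and 0.154 (1 and 25). Irf7, an interferon regulatory factor, was at 3.86 (15 and 15) and 0 (0 and 20).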

How the results depend on the processing

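No paired analysis was possible because each group has 1 library. The member share ratio of CA3 over vehicle ran from 0.938 to 1.10 over its alternatives, and no list median of AP-1 subunits, other immediate early genes or heat shock chaperones changed sign.

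Genes higher in members (367) numbered 225 in cells of 1000 genes or more and 25% mitochondrial UMIs or less, 132 among cells of 8000 to 16000 UMIs and 5 to 20% mitochondrial UMIs, 98 with at least 100 Malat1 UMIs per 10000, 197 without the 3 member cells with most UMIs and 571 with 4 nuclear long RNAs out of the total. Genes lower in members (54) numbered 27 and 99 at Cyr61 and Fosb gates of 2 and 8, 24 among the cells of like depth, 87 among cells of at most 20000 UMIs, 26 unthinned, 27 at 50 thinned UMIs, 532 without the 3 member cells (only member counts lose UMIs, by construction) and 19 without the nuclear RNAs. Genes higher in CA3 members (29) numbered 97 among the cells of like depth, 178 thinned to 2500 UMIs, 57 without the 50 highest genes in the total, 779 with 10 UMIs and no level minimum and 14 without the 3 cells. Genes lower in CA3 members (39) numbered 24 without cells carrying markers of another type, 86 at like depth, 161 thinned and 920 without the minimum. More genes are tested without the minimum, by construction. The number of genes measured under each treatment alternative is not given here, so the treatment counts are not shares. The causes of the other differences were not tested.

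Turned directions were these. Slc12a3, CA3 over vehicle, was at 0.788 at a gate of 8, 0.665 at a proximal tubule gate of 50, 0.765 without other-type cells, 0.835 at like depth, 0.664 at 20000 UMIs and 0.702 without 3 cells. In the same order without the ceiling, H2-Eb1 was at 2.02, 1.89, 1.83, 2.77 and 1.80. Tmsb4x was at 1.06 at the gate of 50, 1.52 without other-type cells and 7.35 at like depth, and Hbb-bs at 0.603 without other-type cells, 0.944 at like depth, 0.657 at 20000 UMIs and 0.627 without 3 cells. Calb1 in members over others was at 1.04 with vehicle at like depth. Among Malat1-rich cells Nme2 was at 1.24 (vehicle), Gchfr at 1.40 and 1.59, Exosc4 at 1.12 (CA3), the respiratory chain median at 1.12 and 1.04 times and that of nuclear long RNAs at 0.793 and 0.819. The Malat1 minimum itself selects on a gene of the nuclear long RNA list. The cause was not tested.

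The like-depth cells, the 20000 UMI ceiling, the total without nuclear RNAs and the Malat1 minimum were chosen after seeing the data. Depth limits genes under about 0.5 per 10000, such as Ctgf, Havcr1 and Lcn2.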

Other observations

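Genes outside the lists, picked after their values were seen, also separated members from the other Malat1-rich cells. Angptl4, a secreted inhibitor of lipoprotein lipase, was at 8.85 and 13.5 times (11.6 and 11.5 against all other cells), and Slc25a20, the mitochondrial carnitine carrier, at 2.996 and 4.60. Acot2, a mitochondrial acyl-CoA thioesterase, was at 3.49 and 3.69. Of the 20 genes of the fatty acid oxidation list, 16 lay above 1 in both libraries among Malat1-rich cells, but 6 above and 12 below against all other cells, and 9 above and 6 below among cells of like depth.

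Nr1d1, a circadian repressor, was at 5.03 and 4.21 among Malat1-rich cells, and Cebpb, a stress-responsive transcription factor, at 5.76 and 4.69. Gpx3, a plasma glutathione peroxidase made in the proximal tubule, was lower at 0.640 and 0.663.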
